A study of Mus musculus with 2 samples.

Results

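Glul-rich hepatocytes are liver parenchymal cells with a high content of Glul mRNA, which encodes glutamine synthetase, the enzyme that joins ammonia to glutamate. They were examined in 2 droplet single-cell RNA sequencing libraries, 1 per group, made from suspensions of hepatocytes and non-parenchymal liver cells. A barcode was taken as one of these cells when it held at least 2000 unique molecular identifiers (UMIs, distinct counted molecules), at most 50% mitochondrial UMIs, at least 2% of its UMIs in Alb, Apoa1 and Ttr together, at most 2 UMIs of the proliferation genes Mki67, Top2a, Cenpf and Ube2c, and at least 0.1% of its UMIs in Glul. The rule found 57 cells among the 10616 barcodes of the series, and 2242 other barcodes met every condition but the Glul one and are called the other hepatocytes. Because the rule reads Glul and the albumin group, the levels of Glul, Alb, Apoa1 and Ttr in these cells are given as a description only.

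Both libraries came from livers of C57BL/6 mice. The pIVCL group underwent partial inferior vena cava ligation, a narrowing of the vein that carries blood away from the liver, from 8 to 10 weeks of age and was kept for 6 weeks, which congests the liver and raises portal pressure. The Control group is called healthy in its title. The growth text of the labels describes the ligation for both samples, so the groups rest on the genotype label, and the sources used here do not say whether Control animals were sham operated or how many animals a library pools. With 1 library per group every difference between groups has no replicate check, and intervals cover counting error only.

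Hepatocytes change their work along the path of blood from the portal vein to the central vein. Cells near the portal vein make urea from ammonia and release glucose, while the last rows of cells around the central vein take up the ammonia that is left and store it in glutamine. Wnt ligands from the central vein endothelium keep up the program of those last cells, with Glul, the glutamate transporter gene Slc1a2 and the ornithine aminotransferase gene Oat among its known targets.

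The Control library held 3574 barcodes and 24637681 UMIs, and the pIVCL library 7042 barcodes and 38154000 UMIs. Of these barcodes, 601 in Control and 1698 in pIVCL were hepatocytes by the rule. The libraries shared 13 barcode sequences, of which 0 belonged to hepatocytes in both libraries and 0 to a Glul-rich cell of either.

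The label of perivenous hepatocytes was checked against markers, and the Control cells carried them while the pIVCL cells carried them in part. Levels here are CPM, the UMIs of a gene per 1000000 UMIs summed over a set of cells. The summed level of 7 hepatocyte markers was 57969 CPM in the 49 Control cells and 81774 CPM in the 8 pIVCL cells, beside 103705 and 89383 CPM in the other hepatocytes. Alb itself, the main plasma protein, stood at 24649 CPM in the Control cells and 67241 CPM in the other Control hepatocytes. Slc1a2 stood at 1937 CPM in the Control cells and 443 CPM in the pIVCL cells, and Oat at 4462 and 2940 CPM. In 3 of the 8 pIVCL cells Slc1a2 had 0 UMIs, so the name perivenous rests on fewer markers there.

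Markers of other liver cell classes were low in these cells. The 8 sinusoidal endothelial markers summed to 194 CPM in the Control cells, with single cells between 0 and 2256 CPM, beside 13961 CPM in the non-hepatocyte barcodes of that library. In the pIVCL cells they summed to 47.4 CPM beside 4260 CPM, and Clec4g, Fcgr2b, Dnase1l3, Gpr182, Ptprb and Bmp2 were at 0. The 5 markers of the central vein endothelium, Wnt2, Wnt9b, Rspo3, Thbd and Cdh13, summed to 6.45 CPM in the Control cells and were all at 0 in the pIVCL cells. Kupffer cell markers reached 10.8 and 7.90 CPM and stellate cell markers 20.8 and 23.7 CPM. No cell held more than 0.245% of its UMIs in the markers of other classes together. Doublets of 2 hepatocytes would not show in these markers and were not called here.

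The Glul-rich cells of Control were deeper than the other hepatocytes. Their UMIs ranged from 2042 to 58749 with a median of 29783, beside a median of 11580.5 in the other Control hepatocytes. In pIVCL they ranged from 2057 to 31198 with a median of 18239, beside 11784.5. The median number of genes detected was 4815 in the Control cells and 3543 in the pIVCL cells, beside 2464.5 and 2640. The median mitochondrial share was 19.6% and 18.4%, beside 24.1% and 23.4%. Levels are therefore given as CPM, and the part of depth in the differences below was not tested.

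Glul-rich cells made up a larger share of the hepatocytes in the Control library. They were 49 of 601 Control hepatocytes, 8.15% (exact 95% binomial interval 6.09% to 10.6%), and 8 of 1698 pIVCL hepatocytes, 0.471% (0.204% to 0.926%). The Control share was 17.3 times the pIVCL share. The Glul content differed too, with a median of 0.872% of UMIs in the Control cells (0.110% to 1.58%) and 0.177% in the pIVCL cells (0.104% to 0.681%). Around the limit, the 3 Control cells just inside it held 0.110%, 0.121% and 0.125% Glul and the 3 just outside 0.0757%, 0.0673% and 0.0653%. In pIVCL the 3 just inside held 0.104%, 0.107% and 0.122%, and the 3 just outside 0.0798%, 0.0778% and 0.0593%. With Glul at 0.3% the shares were 6.82% and 0.177%, with 3 pIVCL cells left.

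**Figure D1:**
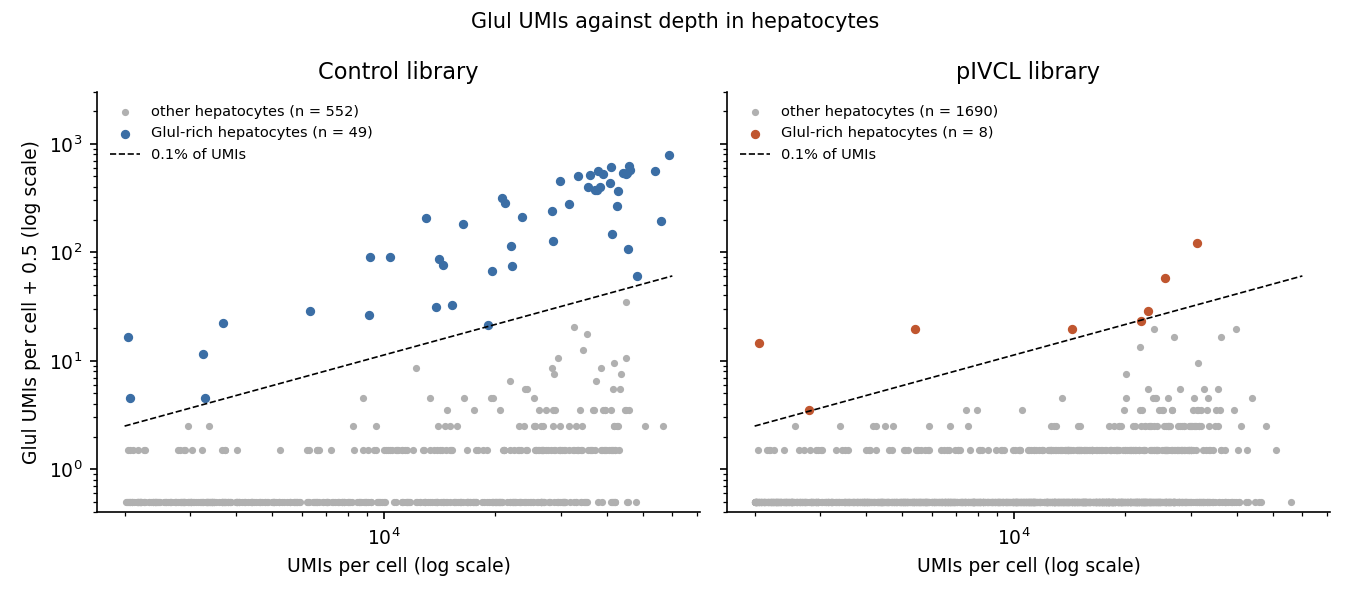
Glul UMIs with 0.5 added (vertical, log scale) against total UMIs (horizontal, log scale) of every hepatocyte, 1 point per cell, with the library in its own panel and a dashed line at 0.1% of UMIs (grey, other hepatocytes, colour, Glul-rich cells). Most of the 49 Control cells lie far above the line, while most of the 8 pIVCL cells lie close to it.

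The library difference in share depended on the albumin limit. With at least 5% of UMIs in Alb, Apoa1 and Ttr in place of 2%, the share was 0.460% in Control (2 of 435) and 0.351% in pIVCL (4 of 1141). The Glul-rich Control cells held a median of 3.27% in these 3 genes, beside 8.46% in the other Control hepatocytes, so that limit removed 47 of the 49. In pIVCL the medians were 4.19% and 5.77%. At a limit of 1% the shares were 7.63% and 0.503%. With every hepatocyte thinned to 2000 UMIs and at least 2 of them in Glul, the shares were 8.82% (53 of 601) and 0.648% (11 of 1698). The same limit took in 9.87% and 4.81% of the non-hepatocyte barcodes, so Glul alone does not mark hepatocytes. Where cells were lost in dissociation was not measured, so fewer such cells in the liver and fewer recovered cells cannot be told apart.

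The 2 Control cells that passed the 5% limit stood apart from the other 47. One held 13828 UMIs with 63205 CPM Alb, 1663 CPM Cyp2f2 and 1663 CPM Cps1, both genes of portal hepatocytes. The other held 3300 UMIs with 4 Glul UMIs, 121818 CPM Alb, 2424 CPM Cyp2f2 and 0 Slc1a2 UMIs. Every level of the Control cells below includes both.

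Limits on genes that the rule does not read gave the same order of the libraries. At least 0.02% of UMIs in Slc1a2 was met by 61 Control hepatocytes (10.1%) and 8 pIVCL hepatocytes (0.471%), among them 47 of the 49 and 4 of the 8 Glul-rich cells. At least 0.2% in Oat was met by 54 (8.99%) and 19 (1.12%), with 40 of the 49 and 7 of the 8. At least 0.01% in Rhbg and Lgr5 together was met by 34 (5.66%) and 5 (0.294%), with 29 and 3. At least 0.5% in Cyp2e1 was met by 115 (19.1%) and 7 (0.412%), with 42 and 1. Cyp2e1 was also lower in the other pIVCL hepatocytes, at 529 against 2170 CPM in Control, so a fixed limit on it takes in fewer cells there.

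The 50 hepatocytes of each library with the highest Cyp2e1 share show the same contrast. In Control 32 of them were Glul-rich, and together the 50 held 8184 CPM Glul, 1656 CPM Slc1a2 and 4078 CPM Oat. In pIVCL 4 were Glul-rich, and the 50 held 335, 76.3 and 1022 CPM. Cyp1a2, another gene of the central zone, stood at 1185 and 719 CPM in these 50.

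The first comparison set the 49 Glul-rich cells of Control against the 552 other Control hepatocytes. A gene was measured when its pooled level gave at least 10 UMIs in the smaller sum, and called when the log2 ratio with 20 CPM added to both levels passed 1 in either direction. Of 7397 measured genes 165 were called (2.23%), 82 higher (1.11%) and 83 lower (1.12%) in the Glul-rich cells, and the median over all measured genes was 0.11. Glul, which the rule reads, led the ranked genes on the higher side, followed by Slc1a2, Oat, Meg3 and Cyp2a5. Hsd17b6, Hal, Arg1, Cyp2f2 and Cps1 led the lower side. With the albumin limit at 5%, which leaves only the 2 Control cells that stood apart, 13 genes were called, and Cyp2e1 (log2 ratio -0.57), Cps1 (0.11) and Arg1 (0.62) changed sign.

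Genes of ammonia and glutamate handling stood on both sides. Of 12 measured genes in a list of 18 for ammonia and glutamine capture, Glul, Slc1a2, Oat and Rhbg were called higher, while Slc7a2, Got1 and Gls2 were called lower. Their median of 0.01 lay below that of all genes, so the list split rather than shifted. Glul (chr1:153899944-153909723, GRCm38), chosen by the rule, stood at 9379 CPM against 49.5.

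Slc1a2 (chr2:102658659-102790784), a sodium-driven glutamate transporter, ranged over the Control cells from 0 to 3481 CPM with a median of 1788. Its summed level of 1937 CPM compared with 32.2 CPM in the other hepatocytes, a ratio of 60.1 (conditional exact 95% interval 53.1 to 68.3). It had at least 1 UMI in 48 of the 49 cells, the exception being the shallow albumin-rich cell. Oat (chr7:132557478-132576398), which turns ornithine toward glutamate, ranged from 0 to 8054 CPM with a median of 4116. Its level of 4462 CPM compared with 288 CPM, a ratio of 15.5 (14.8 to 16.2). Rhbg (chr3:88242874-88254709), an ammonia channel, ranged from 0 to 213 CPM with a median of 52.2, and its level of 83.1 CPM compared with 1.40 CPM, a ratio of 59.4 (32.7 to 118). These 3 genes were thus high in most of the cells and not carried by a few. Gls2, the liver glutaminase that frees ammonia from glutamine near the portal vein, ran the other way at 6.45 CPM against 206 CPM.

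Meg3 (chr12:109541001-109571726), a long noncoding RNA of an imprinted locus, was almost restricted to the Glul-rich cells among Control hepatocytes. It had 254 UMIs in the 49 cells (182 CPM) and 3 UMIs in the 552 others (0.350 CPM), a ratio of 520 (176 to 2538). The UMIs lay in 23 of the 49 cells, with up to 6366 CPM in 1 cell. Non-hepatocyte barcodes held 20.0 CPM in Control and 20.3 CPM in pIVCL. Slc13a3, a carrier of dicarboxylates, stood at 156 against 3.73 CPM, and Lhpp, a phosphatase of histidine and lysine phosphates, at 197 against 18.7 CPM.

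Several Wnt target genes were higher, though not all. Of 27 listed Wnt target and pathway genes 16 were measured, 4 were called higher and 1 lower, with a median of 0.34. Tbx3, a repressor of transcription, stood at 115 CPM against 15.3 CPM. Lgr5, the R-spondin receptor, stood at 57.3 against 6.07 CPM, a ratio of 9.45 (6.58 to 13.7). Cldn2, a tight junction channel, stood at 155 against 49.5 CPM, and Notum, a secreted enzyme that inactivates Wnt ligands, at 55.2 against 17.0 CPM. Rnf43, a ligase that removes Wnt receptors, was at 33.7 against 11.7 CPM, a log2 ratio of 0.76 that missed the call. Axin2, a feedback inhibitor of the pathway, fell under the measuring filter at 21.5 CPM, beside 5.65 CPM in the central set and 1.45 CPM in the portal set of the other Control hepatocytes, sets that are defined below. Ccnd1, a cyclin that is also named as a Wnt target, was called lower at 17.2 against 134 CPM.

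The deposited counts are read from RNA alone, and the promoters of the leading genes were read from RefSeq (GRCm38.p6) to show what sequence they share. The core of the TCF/LEF site, through which Wnt signals reach genes, was searched as CTTTGA on either strand (TCAAAG on the other) in the 250 bases before the start. Among the 20 highest genes, 15 had a RefSeq window, and 7 of them (46.7%) held the core, namely Slc1a2, Meg3, Cyp1a2, Lect2, Sult3a1, Cyp2e1 and Gstm3. Over all 27025 RefSeq genes given, 15.8% held it. The windows of Glul and Oat held none. The Slc1a2 window, at chr2:102706188-102706487, lies inside the gene span given above and not before its first base. A match is a description of letters, and binding was not measured. The stretches around the matches of 4 genes of the group follow, 5′ to 3′ on the strand of the gene, with the core in capitals.
Meg3: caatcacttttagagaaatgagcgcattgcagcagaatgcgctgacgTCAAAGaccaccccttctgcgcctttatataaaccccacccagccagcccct
Cyp2e1: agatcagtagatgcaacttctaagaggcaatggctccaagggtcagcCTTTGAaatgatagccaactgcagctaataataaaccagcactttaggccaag
Lect2: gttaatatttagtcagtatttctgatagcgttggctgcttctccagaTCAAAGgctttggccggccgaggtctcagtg
Sult3a1: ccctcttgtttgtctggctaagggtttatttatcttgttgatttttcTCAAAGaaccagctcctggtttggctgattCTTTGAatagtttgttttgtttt
The Meg3 stretch lies at chr12:109540897-109540995 on the plus strand with its core 52 bases before the start. The Cyp2e1 stretch lies at chr7:140763637-140763736 on the plus strand, 135 bases before. The Lect2 stretch lies at chr13:56548539-56548616 on the minus strand, 31 bases before. The Sult3a1 stretch lies at chr10:33857538-33857637 on the plus strand and holds 2 cores, the first 137 bases before the start. All these distances are counted from the RefSeq start. For Cyp2e1 that start lies inside the gene span given below, so its core is nearer to the first base of that span.

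Enzymes of the central zone were higher as a group. Of 26 measured pericentral genes in a list of 28, 15 were called higher and 2 (Mup3 and Hamp2) lower, with a median of 1.20. Cyp2e1 (chr7:140763739-140774987), which oxidises ethanol and paracetamol, ranged from 909 to 10603 CPM over the 49 cells with a median of 8325. Its level of 8215 CPM compared with 2170 CPM in the other hepatocytes, a ratio of 3.79 (3.70 to 3.87). Cyp1a2, which clears caffeine, stood at 1244 against 218 CPM, and Cyp2a5, a coumarin hydroxylase, at 636 against 49.1 CPM. Gulo, the last enzyme of vitamin C synthesis, stood at 912 against 116 CPM. The secreted protein gene Lect2 stood at 530 against 111 CPM.

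Of 35 measured cytochrome P450 and partner genes, 11 were called higher and 3 lower (Cyp3a44, Cyp2a4 and Cyp2f2), with a median of 0.27. Cyp2a4 and Cyp2a5 have near-identical sequences, as have the Cyp2c genes, so reads may be split between copies and their single values are uncertain. Among 36 measured transferases of drug conjugation 5 were called higher and 0 lower. Among the 5 were the glutathione transferases Gstm1 (1952 against 924 CPM), Gstm2 (159 against 19.8 CPM), Gstm3 (91.7 against 9.92 CPM) and Gstm6. The sulfotransferase Sult3a1, not on that list, stood at 348 against 76.4 CPM.

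Genes of bile acid handling moved in single members. Of 26 measured genes 4 were called higher, namely the uptake transporters Slco1b2 (2651 against 1078 CPM) and Slco1a1 (363 against 139 CPM), the oxysterol hydroxylase Cyp7b1 (87.4 against 25.9 CPM) and Akr1c6 (1591 against 706 CPM). Cyp8b1, which makes the cholic acid branch, was called lower at 38.0 against 207 CPM. Cyp7a1, the rate-limiting enzyme of bile acid synthesis, was near even at 65.9 against 42.4 CPM. Blvrb, a biliverdin reductase, was the 1 called gene among 10 measured heme genes, at 313 against 92.0 CPM.

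The urea cycle and other portal functions were low. Of 27 measured periportal genes 0 were called higher and 20 lower, with a median of -1.94. Cps1, which feeds ammonia into the urea cycle, ranged from 0 to 1818 CPM over the 49 cells with a median of 45.1. Its level of 112 CPM compared with 1456 CPM, a ratio of 0.0768 (0.0651 to 0.0899). Arg1, which splits arginine to urea, stood at 60.2 against 1045 CPM, and Ass1, which makes argininosuccinate, at 128 against 1234 CPM. Hal, the first enzyme of histidine breakdown, stood at 12.9 against 436 CPM, Sds, which deaminates serine, at 5.02 against 191 CPM, and the portal P450 gene Cyp2f2 at 38.0 against 741 CPM. Across the urea cycle and amino acid list 12 of 26 measured genes were called lower and 1 higher, with a median of -0.91. The 1 higher gene was Prodh, which opens proline breakdown toward glutamate, at 182 against 46.3 CPM.

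Among the other lowest genes, Hsd17b6 stood at 13.6 against 456 CPM and Hsd17b13, a lipid droplet enzyme, at 5.73 against 267 CPM. C9, the last component of the complement attack complex, stood at 8.60 against 201 CPM, and Etnppl, which breaks down phosphoethanolamine, at 5.02 against 190 CPM.

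The other hepatocytes hold both zones, so the Glul-rich cells were also set against the central set alone, the 274 of the 552 other Control hepatocytes with the higher share of central marker UMIs. The 278 others form the portal set. The split used Cyp2e1, Cyp1a2, Cyp2c29, Cyp2c50, Cyp2c54 and Gulo against Cyp2f2, Hal, Sds, Hsd17b13, Pck1, Ass1 and Asl, whose steps between the sets are no finding. Of 7463 measured genes 100 (1.34%) were called, 44 higher (0.59%) and 56 lower (0.75%) in the Glul-rich cells, with a median of 0.08 over all genes. The pericentral list had 9 of 27 genes called higher and 1 lower (median 0.67), and the periportal list 13 of 24 called lower (median -1.14).

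Some genes differed at each step across the 3 sets, while others differed mainly at the last. Arg1 stood at 1273 CPM in the portal set, 832 CPM in the central set and 60.2 CPM in the Glul-rich cells. Cps1 stood at 1607, 1315 and 112 CPM in that order, so most of its difference lay between the central set and the Glul-rich cells. Oat ran the other way with 29.9, 530 and 4462 CPM, as did Slc1a2 with 0.724, 61.7 and 1937 CPM. Tbx3 stood at 2.41, 27.4 and 115 CPM, and Lgr5 at 0.482, 11.3 and 57.3 CPM. Cyp7a1 was alike in the central set and the Glul-rich cells, at 11.3, 71.4 and 65.9 CPM.

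Igfbp2, a binding protein of insulin-like growth factors, was level across the bulk of the tissue and low in the last cells, with 600 CPM in the portal set, 650 CPM in the central set and 57.3 CPM in the Glul-rich cells. Hamp2, one of the genes of the hepcidin family of iron peptides, stood at 501, 616 and 66.7 CPM, and Hamp, the hepcidin gene itself, at 535, 878 and 191 CPM. Pigr, the receptor that carries immunoglobulin A to bile, stood at 1511, 1089 and 201 CPM. Reads of Hamp and Hamp2 may be split between these near-identical copies, so their single values are uncertain.

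**Figure D2:**
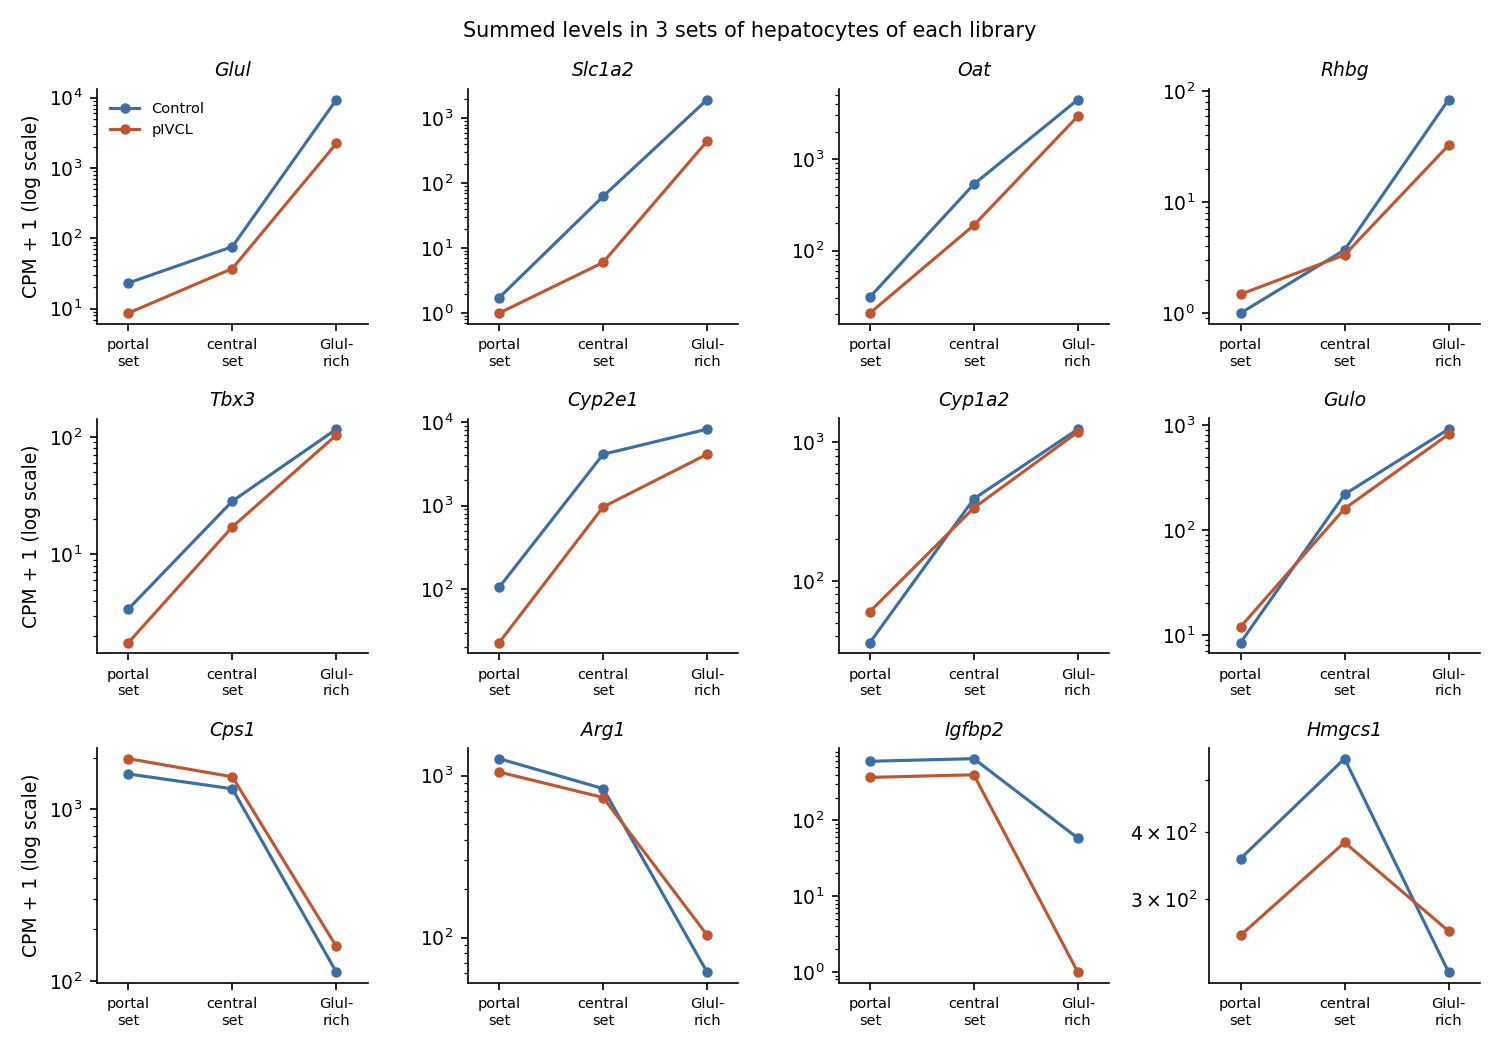
Levels of 12 genes (CPM with 1 added, log scale) in the portal set, the central set and the Glul-rich cells, with 1 panel per gene and 1 line per library. In Control, Slc1a2 goes from 0.724 to 61.7 to 1937 CPM, while Cps1 goes from 1607 to 1315 to 112 CPM.

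Cholesterol synthesis genes were low in the Glul-rich cells of Control against both references. Of 20 measured genes 7 were called lower and 0 higher against the other hepatocytes, with a median of -0.84, and 0 of the 20 had a log2 ratio above 0. Against the central set 9 of 20 were called lower, with a median of -0.94. Idi1, which makes dimethylallyl diphosphate, stood at 43.7 against 177 CPM, and Sqle, which oxidises squalene, at 16.5 against 87.4 CPM. Hmgcs1, which makes hydroxymethylglutaryl-CoA, stood at 356 CPM in the portal set, 546 CPM in the central set and 219 CPM in the Glul-rich cells. The lipogenic genes Scd1, a fatty acid desaturase, and Acly, which makes cytosolic acetyl-CoA, stood at 269 against 1113 CPM and 35.1 against 140 CPM.

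The remaining lists ranged from no called gene to 8 of 18. Among 41 measured plasma protein genes 2 were called higher and 7 lower (median -0.35), and among 35 coagulation and complement genes 2 were lower (median -0.36). The gluconeogenesis list had 3 of 16 lower, namely Pck1 (811 against 1772 CPM), Fbp1 (241 against 718 CPM) and Sds. Of 31 transcription factor and nuclear receptor genes Tbx3 and Ahr, the receptor for dioxins (112 against 41.7 CPM), were higher. Fatty acid oxidation had 0 of 23 genes called (median 0.23), and immediate-early genes, which mark dissociation stress, 0 of 20 (median 0.07). Of 13 measured heat shock genes 1 (Hspb1) was higher and of 23 interferon genes 1 (Rsad2) was lower. Growth hormone targets divided, with 4 of 18 higher (Cyp2d9, Hsd3b5, Slco1a1 and Socs2) and 4 lower (Cyp3a44, A1bg and Igfbp2 among them). Among 11 measured major urinary protein genes Mup17 was higher (1418 against 391 CPM) and Mup3 lower (2542 against 6214 CPM), both uncertain since the Mup copies are nearly identical.

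The 49 Control cells differed among themselves along their Glul content. They were placed in groups of 17, 16 and 16 cells by falling Glul share. Oat stood at 5717, 3810 and 3100 CPM in this order, Slc1a2 at 2206, 1921 and 1494 CPM, and Rhbg at 115, 83.6 and 28.1 CPM. Meg3 stood at 258, 186 and 47.8 CPM. Cps1 ran the other way with 18.1, 79.0 and 312 CPM, as did Arg1 with 18.1, 37.2 and 160 CPM. Cyp2e1 changed less, from 8546 CPM to 8318 and 7522 CPM. The group with the highest Glul share also had the deepest cells, with median UMIs of 37746 beside 30011.5 and 19362. With every cell thinned to 2000 UMIs, the Spearman correlation with Glul over the 49 cells was 0.60 for Oat, 0.45 for Cyp2e1, 0.31 for Slc1a2, 0.27 for Cyp1a2 and -0.09 for Alb. For Rhbg it was 0.08, for Tbx3 -0.03 and for Lgr5 -0.21, genes with few or no UMIs left in most thinned cells. These values describe cells of 1 library that share its free RNA.

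The 8 pIVCL cells ranged widely in depth and marker content. The cell with 31198 UMIs held 120 Glul, 20 Slc1a2, 54 Oat and 211 Cyp2e1 UMIs. The cell with 25646 UMIs held 57, 3, 132 and 117 UMIs of these genes, the cell with 22939 UMIs 28, 19, 54 and 82, and the cell with 22083 UMIs 23, 12, 48 and 47. The cell with 14395 UMIs held 19, 0, 31 and 42, and the cell with 5404 UMIs 19, 2, 28 and 17. The 2 shallowest, with 2057 and 2810 UMIs, held 14 and 3 Glul UMIs, 19 and 6 Oat UMIs, 2 Cyp2e1 UMIs each and 0 Slc1a2 UMIs. Thus 3 cells carried most of the Slc1a2 molecules, and Oat was present in all 8. Portal genes were present in some cells too. The cell with 5404 UMIs held 6 Cyp2f2, 3 Hal, 4 Cps1 and 1 Gls2 UMIs, or 1110, 555, 740 and 185 CPM. The cell with 2810 UMIs held 1 UMI each of Cyp2f2, Cps1 and Gls2 and 0 of Hal. Over the 8 cells Cyp2f2 had UMIs in 5 and Cps1 in 8, with medians of 35.5 and 191 CPM. The name perivenous is therefore less sure for the cells with 5404 and 2810 UMIs.

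Set against the 1690 other pIVCL hepatocytes, the 8 cells were high in pericentral and low in periportal genes. Of 1420 measured genes 126 (8.87%) were called, 42 higher (2.96%) and 84 lower (5.92%), with a median of 0.04 over all genes. The pericentral list had 15 of 21 measured genes called higher and 1 lower (median 1.28), and the periportal list 0 higher and 18 of 24 lower (median -1.95). Of 23 measured urea cycle and amino acid genes 14 were called lower, with a median of -1.51. The ammonia list had 1 of 9 measured genes called higher (Oat) and 4 lower (median -0.66), with Glul and Slc1a2 under the measuring filter. Of the Wnt list 3 genes were measured, 0 called higher and 1 lower (median -0.59). The cholesterol list, called lower in Control, had 0 of 9 measured genes called here, with a median of -0.14. Whether the libraries differ in this list cannot be tested with 1 library each.

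Oat stood at 2940 CPM in the 8 cells and 111 CPM in the other pIVCL hepatocytes, a ratio of 26.6 (23.8 to 29.6). Cyp2e1 stood at 4110 against 529 CPM, Gulo at 814 against 91.1 CPM, Cyp1a2 at 1185 against 209 CPM and Lect2 at 569 against 88.9 CPM. Slc1a2 had 56 UMIs in the 8 cells, 443 against 2.72 CPM, a ratio of 163 (111 to 238), and Glul stood at 2237 against 23.1 CPM. Both genes missed the measuring filter, whose pooled level is set by the far larger sum of the other cells. On the low side Cps1 stood at 158 against 1741 CPM, Cyp2f2 at 111 against 1417 CPM and Hal at 39.5 against 512 CPM. Igfbp2 had 0 UMIs in the 8 cells, where 3 UMIs would give 23.7 CPM, beside 384 CPM in the others.

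Among genes measured in both libraries, most of those called in one were called in the other. The full counts were 165 called genes in Control and 126 in pIVCL. Called genes not measured in both, such as Glul and Slc1a2, are left out below. Over the 1417 genes measured in both, 31 were called higher and 59 lower in Control, and 42 and 81 in pIVCL. Of these 24 were higher in both, 77.4% of the Control genes and 57.1% of the pIVCL genes, and 44 were lower in both, 74.6% and 54.3%. None was called in opposite directions. The 2 comparisons share no cells, and each uses the hepatocytes of its own library.

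**Figure D3:**
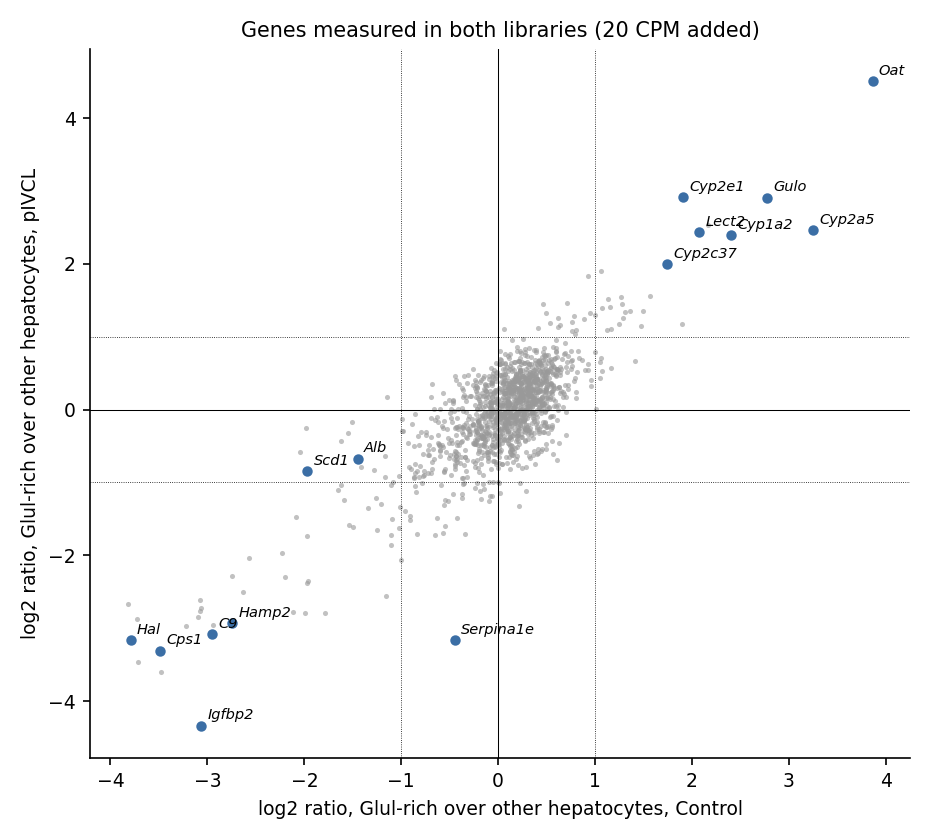
Log2 ratio of Glul-rich against other hepatocytes in Control (horizontal) and pIVCL (vertical), with 20 CPM added, 1 point per gene for the 1417 genes measured in both and dotted lines at the 2-fold limits. The 24 genes called higher in both lie at the upper right and the 44 called lower in both at the lower left, and no gene lies past the limits in opposite directions.

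The last comparison set the Glul-rich cells of pIVCL against those of Control. Of 1541 measured genes 134 (8.7%) were called, 47 higher (3.05%) and 87 lower (5.65%) in pIVCL, with a median of -0.08. In the other hepatocytes 77 of 10705 genes (0.719%) were called between the libraries, 36 higher (0.336%) and 41 lower (0.383%). Over the 1540 genes measured in both comparisons, 9 of the 47 called higher and 18 of the 86 called lower in the Glul-rich cells were also called in the other hepatocytes. The other hepatocytes had 14 higher and 30 lower calls over these 1540 genes. By direction alone, 47 of the 47 and 80 of the 86 had a log2 ratio of the same sign in the other hepatocytes. The share with the same sign over all 1540 genes was not computed, so these counts have no background beside them. The sum of 8 cells holds 126532 UMIs against 1395195 in the 49, so the intervals are wider here. With the albumin limit at 5%, which leaves 2 Control and 4 pIVCL cells, 74 genes were called higher and 19 lower, and the log2 ratios turned positive for Cyp2e1 (2.11), Slc1a2 (0.94) and Oat (0.77). Against the 20 Control cells under a cap on Glul share, described below, 91 genes were called higher and 82 lower. The excess of lower calls thus depended on which Control cells were used.

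With the cells of the rule, Slc1a2 and Cyp2e1 were lower in the pIVCL cells, while Cyp1a2, Lect2 and Tbx3 were near even. Cyp1a2 and Gulo depended on the albumin limit as well, with log2 ratios of 1.84 and 2.64 at 5% beside -0.07 and -0.16 at 2%. Slc1a2 ranged over the 8 cells from 0 to 828 CPM with a median of 244, beside a Control median of 1788 CPM. Its level of 443 against 1937 CPM gave a ratio of 0.229 (0.172 to 0.298). Cyp2e1 ranged from 712 to 6763 CPM, with 0 of the 8 cells above the Control median of 8325 CPM. Its level of 4110 against 8215 CPM gave a ratio of 0.50 (0.457 to 0.546), and its log2 ratio of -0.996 just missed the call. Oat ranged from 1731 to 9237 CPM, with 3 of the 8 above the Control median, and gave a ratio of 0.659 (0.592 to 0.732). Cyp1a2 stood at 1185 against 1244 CPM, a ratio of 0.953 (0.801 to 1.13). Lect2 and Tbx3 gave log2 ratios of 0.10 and -0.14. In the other hepatocytes the log2 ratios with 20 CPM added were -2.0 for Cyp2e1, -1.24 for Oat and -1.20 for Slc1a2. For Slc1a2 the 20 CPM added understates the difference, since its level there was only 32.2 CPM in Control and lower in pIVCL. That value is therefore not comparable with the ratio of 0.229 above, which has nothing added.

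The difference in Glul content between the libraries is part of the rule's own measure, so the pIVCL cells were also set against the 20 Control cells whose Glul share lay no higher than the highest pIVCL share of 0.681%. That highest share came from the shallowest pIVCL cell, with 2057 UMIs and 14 Glul UMIs, and the next highest was 0.385%. The cap did not make Glul equal, with median shares of 0.338% in these Control cells and 0.177% in the pIVCL cells. Summed Glul stood at 2237 CPM in pIVCL against 3474 CPM, a ratio of 0.644 (0.565 to 0.731). Slc1a2 stayed lower at 443 against 1485 CPM, a ratio of 0.298 (0.223 to 0.392), as did Cyp2e1 at 4110 against 7339 CPM, a ratio of 0.560. Oat was even at 2940 against 2889 CPM, a ratio of 1.02. Gstm3 stood at 379 against 23.2 CPM, a ratio of 16.3 (8.16 to 36.2), and Mup20 at 1367 against 202 CPM, a ratio of 6.76 (5.2 to 8.85). Scd1 stood at 1802 against 386 CPM, a ratio of 4.67, and Meg3 at 0 UMIs against 40 UMIs (93.0 CPM). The Control cells with 14466 and 22169 UMIs held 22 and 15 of these 40 Meg3 UMIs, so few cells carried it. The subset of 20 Control cells was chosen after the data were seen, and it holds both albumin-rich Control cells.

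The highest ratios of the pIVCL cells belonged to Mup20, Scd1 and Gstm3. Mup20, a major urinary protein known as darcin, ranged from 0 to 606 CPM over the Control cells and from 181 to 8882 CPM over the pIVCL cells, and all 8 lay above the Control median of 90.2 CPM. Its level of 1367 against 121 CPM gave a ratio of 11.3 (9.08 to 14.0). The cells with 5404 and 14395 UMIs held the highest Mup20 levels, 8882 and 4724 CPM. Scd1 ranged from 0 to 3636 CPM in Control and from 356 to 4375 CPM in pIVCL, and its level of 1802 against 269 CPM gave a ratio of 6.69. Gstm3 stood at 379 against 91.7 CPM, a ratio of 4.13. With the albumin limit at 5% the log2 ratio of Scd1 went from 2.65 to 0.18. All 8 cells lay above the Control median for Scd1 as well, though the ranges of these genes overlapped between the libraries.

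These genes were also higher in the other pIVCL hepatocytes, where Mup20 stood at 1171 against 114 CPM, Scd1 at 3260 against 1113 CPM and Gstm3 at 157 against 9.92 CPM. Ppia, a prolyl isomerase, stood at 972 against 290 CPM in the Glul-rich cells and at 696 against 366 CPM in the others, and the glycolytic gene Gapdh at 830 against 265 CPM and 754 against 386 CPM. Rarres2, which encodes chemerin, stood at 775 against 229 CPM and 684 against 384 CPM.

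On the lower side Mup17 stood at 94.8 against 1418 CPM in the Glul-rich cells and 45.5 against 391 CPM in the others. Sult3a1 stood at 31.6 against 348 CPM and 1.53 against 76.4 CPM. Socs2, a growth hormone target that dampens its signal, stood at 23.7 against 168 CPM and 18.5 against 68.4 CPM. Serpina1e stood at 31.6 against 349 CPM in the Glul-rich cells, while in the others it stood at 441 against 483 CPM, a log2 ratio of -0.13. Serpina1e belongs to a cluster of near-identical genes, as Mup17 and Mup20 do, so these values are uncertain. Meg3 had 0 UMIs in the 8 pIVCL cells against 254 UMIs (182 CPM) in the 49 Control cells, and the floor of 3 UMIs in the pIVCL sum stands at 23.7 CPM. In Control the Meg3 UMIs lay in 23 of the 49 cells.

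**Figure D4:**
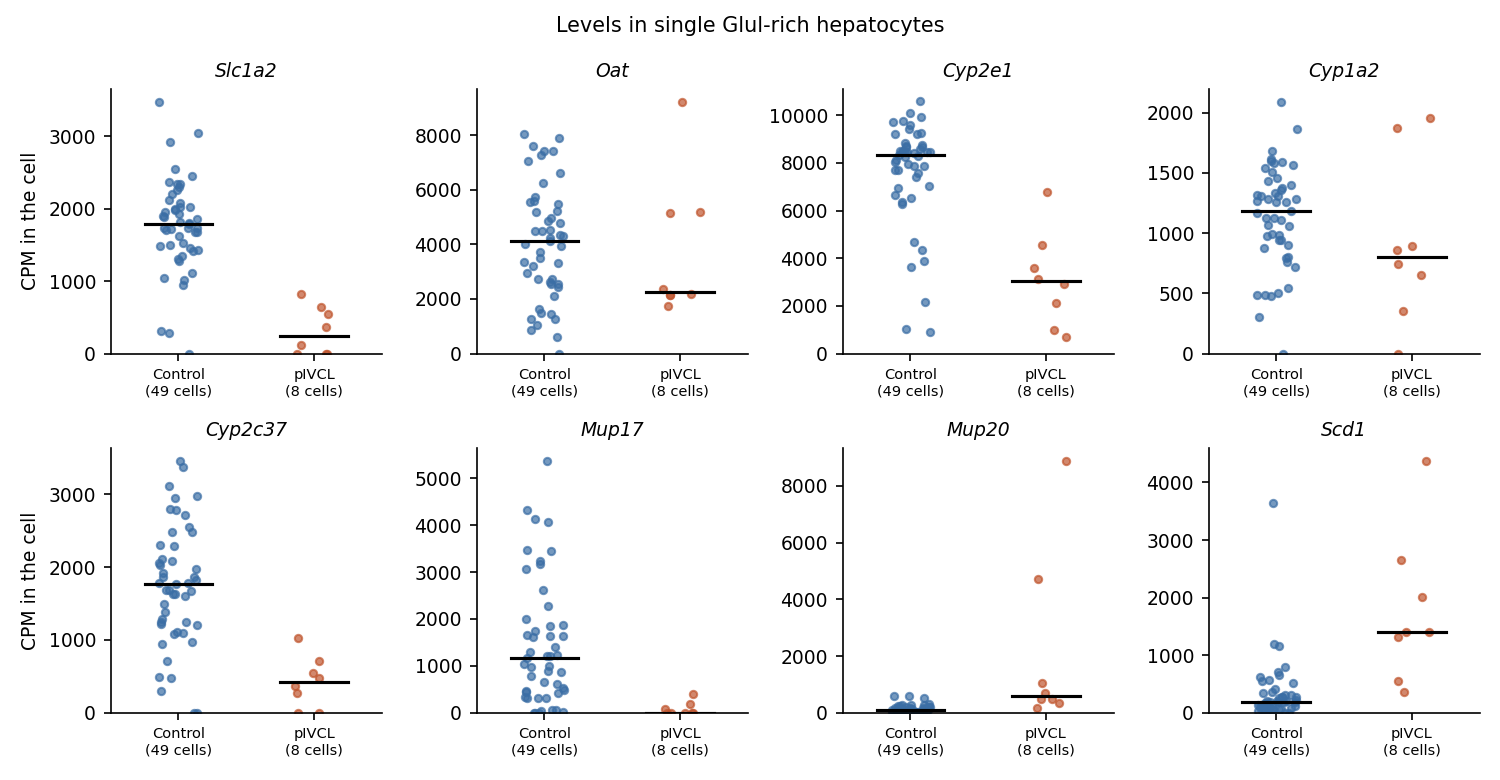
Level per cell (CPM) of 8 genes in the 49 Control and 8 pIVCL Glul-rich cells, 1 point per cell with a bar at the median. All pIVCL cells lie below the Control median of Cyp2e1 and above that of Mup20 and Scd1, and their Oat levels fall within or near the Control range.

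By list, 4 of 23 measured pericentral genes were called lower in the pIVCL cells and 1 higher (median -0.02), and 4 of 30 P450 genes were lower and 1 higher (median -0.43). Cyp2c37, a P450 of the arachidonic acid epoxygenase family, stood at 561 against 1878 CPM, a ratio of 0.299 (0.233 to 0.378). Of 10 measured growth hormone targets 4 were lower and 1 higher, with a median of -0.77. Of 6 measured hypoxia genes 3 were lower, namely Bnip3, Igfbp1 and Vegfa, with a median of -0.70. Of 22 measured transferases 3 were higher and 2 lower, with a median of 0.08. The cholesterol list had 0 of 6 measured genes called, with a median of 0.48. Some of these medians changed sign over 16 alternative settings. The pericentral median ranged from -0.15 to 1.06, the P450 median from -0.58 to 1.04 and the hypoxia median from -0.998 to 0.32. The growth hormone median ranged from -1.18 to -0.42 and the cholesterol median from 0.12 to 0.85.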

How the data were processed

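Single-cell libraries of mixed liver cells were analysed, 1 per group (pIVCL and Control). The authors deposited whole-number UMI counts per gene and barcode with no normalization. The submitters' processing notes name Cell Ranger 3.0.2 and mm10, and the sources used here do not give the annotation release. Gene coordinates come from a GRCm38 annotation.

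Cells were chosen by the rule in the text, and their raw counts were summed per library and set. The cells, the gene lists and the tests were chosen with earlier results of these data known. Levels are CPM. Log2 ratios had 20 CPM added, which understates the change of low genes. A gene was measured at 10 expected UMIs in the smaller sum and called at 2-fold. With 1 library per group no test, p-value or standard error is given. Intervals are exact at 95% (Clopper-Pearson for shares, conditional binomial for ratios) and cover counting error only. A count of 0 has a floor of 3 UMIs. Non-hepatocyte barcodes had at least 500 UMIs, at most 25% mitochondrial UMIs and under 0.5% in Alb, Apoa1 and Ttr. The 24 lists held 559 symbols, of which 556 were found, and all 71 marker symbols were found.

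Genes were named as rule and marker genes, as the 15 highest and 15 lowest of a comparison (10 and 10 between libraries), as the leading members of lists, or by name beforehand. The ranking left out mitochondrial and ribosomal protein genes, unnamed models, segments of immunoglobulin or T cell receptor loci, and genes over 2 times higher in non-hepatocyte barcodes. Other genes named were chosen after their values were seen, and some genes that met the rule are not reported here. No doublets were called and none were removed. Alternatives covered the limits of the rule, the CPM added, the measuring filter, the scaling, means over cells and single cells left out. Software was numpy 2.4.6, pandas 2.3.3, scipy 1.17.1 and matplotlib 3.10.9 under Python 3.11.15, and the scripts' counting and intervals were tested on simulated data.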

Additional observations from a re-analysis of the deposited data

How the results depend on the processing

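No paired analysis was possible because each group holds 1 library, and leaving out a library leaves no comparison. The share in pIVCL was 0.177% with Glul at 0.3% of UMIs, and the share in Control 0.460% with the albumin group at 5%. For Glul-rich against other Control hepatocytes the number of called genes was 13 with the albumin group at 5%, 290 with 5 CPM added and 109 with 50 CPM added. Against the central set it was 18, 180 and 59 at these settings. In pIVCL it was 71 with Glul at 0.3%, 56 at 30 expected UMIs and 362 with no filter. Between the libraries it was 56 with Glul at 0.3%, 83 with 50 CPM added, 53 at 30 expected UMIs, 496 with no filter and 242 as a mean over cells. In the other hepatocytes between libraries it was 169 with 5 CPM added and 46 with 50 CPM added. The remaining counts and shares stayed within 1.5 times or within their interval. List medians moved too. For Glul-rich against other Control hepatocytes the periportal median ranged from -2.19 to 0.005 over the alternatives and the urea cycle median from -1.11 to 0.11. The pericentral median ranged from 0.44 to 1.30. With the albumin group at 5%, which leaves 2 Control cells, log2 ratios changed sign against the other Control hepatocytes for Cyp2e1 (-0.57), Cps1 (0.11), Arg1 (0.62), Rhbg (-0.041), Lgr5 (-0.21) and Igfbp2 (0.89), against the central set for Cps1 (0.17), Arg1 (0.83) and Hmgcs1 (0.16), and between libraries for Slc1a2 (0.94), Cyp2e1 (2.11) and Oat (0.77), with Cyp1a2 at 1.84 and Gulo at 2.64. Between libraries the split of 47 higher and 87 lower became 91 and 82 against the Control cells under the cap on Glul share, and 74 and 19 with the albumin group at 5%. The cause of these changes was not tested, beyond the smaller number of cells or genes that a limit leaves. Depth limits the pIVCL cells, where the floor of 3 UMIs stands at 23.7 CPM.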
